A study of Mus musculus with 4 samples.

Results

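The amino acid response is the arm of the integrated stress response that cells use when amino acids run short. Uncharged tRNA activates the kinase GCN2 (Eif2ak4), which phosphorylates eIF2α, and translation of the transcription factor ATF4 rises while general translation slows. ATF4 then raises transcription of genes for amino acid synthesis, amino acid uptake and tRNA charging, and in many cells the kinase mTORC1 also promotes ATF4 output when growth conditions are good. The genes described here were 45 members of this response, given as a named list and matched by symbol: 12 regulators and feedback genes, 5 enzymes of serine, glycine and one-carbon metabolism, 7 other enzymes of amino acid metabolism, 8 amino acid transporters, and 12 cytosolic aminoacyl-tRNA synthetases together with the tRNA export factor Xpot. All 45 had a probe, out of 23660 named genes on the array.

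The members were measured in 4 samples of mouse bone marrow-derived macrophages (BMDMs) from 10 week-old C57BL/6J mice, 1 sample and 1 array per condition. Marrow cells of every sample were grown for 6 days in medium with L929 cell supernatant, a source of M-CSF, and then stimulated for 2 days. The wild-type M1 sample received IFNγ at 20 ng/ml with LPS at 100 ng/ml, and the wild-type M2 sample received IL-4 at 50 ng/ml. The Lamtor1-deficient M2 sample came from p18 (2400001E08Rik) -/- mice and received IL-4 at 50 ng/ml, and the Torin1 M2 sample was wild type and received IL-4 at 50 ng/ml with Torin1 at 250 nM. Lamtor1 (p18) anchors the Ragulator complex to lysosomes, where Ragulator recruits mTORC1, and Torin1 blocks the catalytic site of mTOR in both mTOR complexes. In the study the gene was deleted with LysM-Cre, which acts in the myeloid lineage, and the number of mice behind each sample is not given in the sources used here.

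Each value below is the processed signal of a probe divided by the 75th percentile of its array, called the normalized signal, and each difference is a log2 ratio to the wild-type M2 array. With 1 array per condition there was no replicate, so no difference has a test. A call means a difference of 2-fold or more. Among 399 probes printed 8 or more times, the SD of the log2 ratio between spots was 0.09 to 0.10 for probes well above background and 0.31 to 0.52 for dimmer ones, which covers spot error only. In whole-culture RNA, fewer cells of a type and less RNA per cell cannot be told apart. The median of all 23660 genes was 0.75 for M1 over M2, 0.04 for Lamtor1-deficient over M2 and -0.05 for Torin1 over M2. When arrays were centred on their medians instead, these became -0.07, 0.11 and -0.30.

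The normalized signal of Lamtor1 (2400001E08Rik; probe at chr7:109060334-109060393, mm9) was 66.3 on the M2 array, 1.55 on the Lamtor1-deficient array, 74.96 on the Torin1 array and 51.2 on the M1 array. It was thus 2.34% of the M2 value on the array labelled deficient. All 6 macrophage markers were well above background on all 4 arrays, with summed normalized signals from 379 to 670. Of these, Emr1 and Fcgr1 were 2-fold or more lower after both Lamtor1 loss (log2 ratios -2.57 and -4.96) and Torin1 (-2.81 and -4.61), while Cd68, Csf1r, Itgam and Mertk stayed within 2-fold, with Cd68 and Mertk above M2 in both. The 4 neutrophil markers on the array summed to 10.6 on the M2 array, against 0.355 to 0.670 on the others. The 6 fibroblast markers summed to 43.3 on the M2 array, 55.9 on the Lamtor1-deficient array, 15.3 on the Torin1 array and 16.0 on the M1 array. The 6 lymphocyte markers summed to between 2.00 and 4.11, with 2 of 6 well above background on the M1, M2 and Torin1 arrays and 4 of 6 on the Lamtor1-deficient array. The fibroblast and neutrophil values, and these macrophage markers, therefore moved with the contrasts below, and their part in the results was not tested.

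ATF4 binds the C/EBP-ATF response element as a dimer with C/EBP family proteins, and the letters TGATGNAA were searched for on both strands in RefSeq promoter windows, from 250 bases before to 50 bases after each gene's start (GRCm38.p6). Of the 45 members, 36 had a window, and 15 of these (41.7%) held a match. A match stood in 4.51% of the 27025 genes of the promoter table and in 3.97% of all windows. The members are a list of known ATF4 genes, so this share is a description of the list. Matches lay in 5 of 11 regulators (Atf3, Trib3, Nupr1, Chac1, Vldlr), 3 of 6 other enzymes (Asns, Pycr1, Got1), 2 of 5 transporters (Slc7a11, Slc1a4) and 5 of 9 synthetases and Xpot (Gars, Aars, Tars, Yars, Iars). None of the 5 serine, glycine and one-carbon genes held the letters. Eif4ebp1, Cth, Slc7a3, Slc7a5, Slc1a5, Wars, Nars, Cars and Lars had no entry.

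The stretches below are the matches of members called in the Lamtor1-deficient or Torin1 comparison, shown so that the element and its surroundings can be compared. Each runs 5′ to 3′ on the strand of its gene, with the match in capitals. The letters TTNCATCA are the same element read on the opposite strand. Of the 17 matches in the 15 members, 13 read TGATGCAA or its reverse complement.

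Asns, chr6:7693210-7693289, minus strand, match at -23: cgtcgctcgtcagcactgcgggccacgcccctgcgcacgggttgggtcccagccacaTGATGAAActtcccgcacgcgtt
Chac1, chr2:119351007-119351086, plus strand, match at -193: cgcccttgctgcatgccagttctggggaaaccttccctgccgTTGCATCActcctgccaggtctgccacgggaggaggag
Trib3, chr2:152344028-152344057, minus strand, match at 15: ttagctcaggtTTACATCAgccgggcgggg
Slc7a11, chr3:50443623-50443709, minus strand, matches at -66 and -47: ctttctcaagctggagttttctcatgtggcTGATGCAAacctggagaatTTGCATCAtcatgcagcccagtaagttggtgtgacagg
Yars, chr4:129189895-129189924, plus strand, match at 4: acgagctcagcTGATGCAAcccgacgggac
Aars, chr8:111033688-111033767, plus strand, match at -112: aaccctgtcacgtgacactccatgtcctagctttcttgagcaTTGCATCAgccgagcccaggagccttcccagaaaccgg
Tars, chr15:11399659-11399738, minus strand, match at -15: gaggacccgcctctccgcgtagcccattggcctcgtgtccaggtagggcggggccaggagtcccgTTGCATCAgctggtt
Got1, chr19:43524670-43524749, minus strand, match at -102: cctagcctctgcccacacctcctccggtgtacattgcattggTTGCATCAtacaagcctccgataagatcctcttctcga
Vldlr, chr19:27216778-27216857, plus strand, match at -200: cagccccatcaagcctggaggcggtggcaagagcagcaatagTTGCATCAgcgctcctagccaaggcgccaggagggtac
Pycr1, chr11:120643814-120643893, minus strand, match at -103: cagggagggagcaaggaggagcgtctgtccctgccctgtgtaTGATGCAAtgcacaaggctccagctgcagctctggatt
Slc1a4, chr11:20332699-20332728, minus strand, match at -4: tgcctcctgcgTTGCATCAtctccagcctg

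Slc7a11 had a pair of matches, 1 on each strand, both before the start. Aars had a further match at 10, after its start. The letters around the element differed from member to member.

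Against the wild-type M2 array, the members were mostly higher on the Lamtor1-deficient array and mostly lower on the Torin1 array. On the Lamtor1-deficient array, 37 of the 45 members had a log2 ratio above 0, where 63.3% of all genes did, and the members' median was 0.57. There, 9 members (20.0%) were 2-fold or more higher, where 8.88% of all genes were, and 2 members (4.44%) were 2-fold or more lower, where 8.74% were. On the Torin1 array only 12 members lay above 0, where 47.5% of all genes did, and the members' median was -0.66. There, 20 members (44.4%) were 2-fold or more lower, where 11.7% of all genes were, and 3 (6.67%) were 2-fold or more higher, where 14.3% were. Both comparisons use the same M2 array, so they are not independent. Restricted to the 43 members well above background on both arrays of each comparison, 9 were 2-fold or more higher and 1 lower on the Lamtor1-deficient array (background 7.84% and 7.8%), and 3 were higher and 19 lower on the Torin1 array (background 12% and 13.1%). The highest of the 4 arrays was the Lamtor1-deficient array for 23 members and the M1 array for 18, and the lowest was the Torin1 array for 23.

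**Figure D1:**
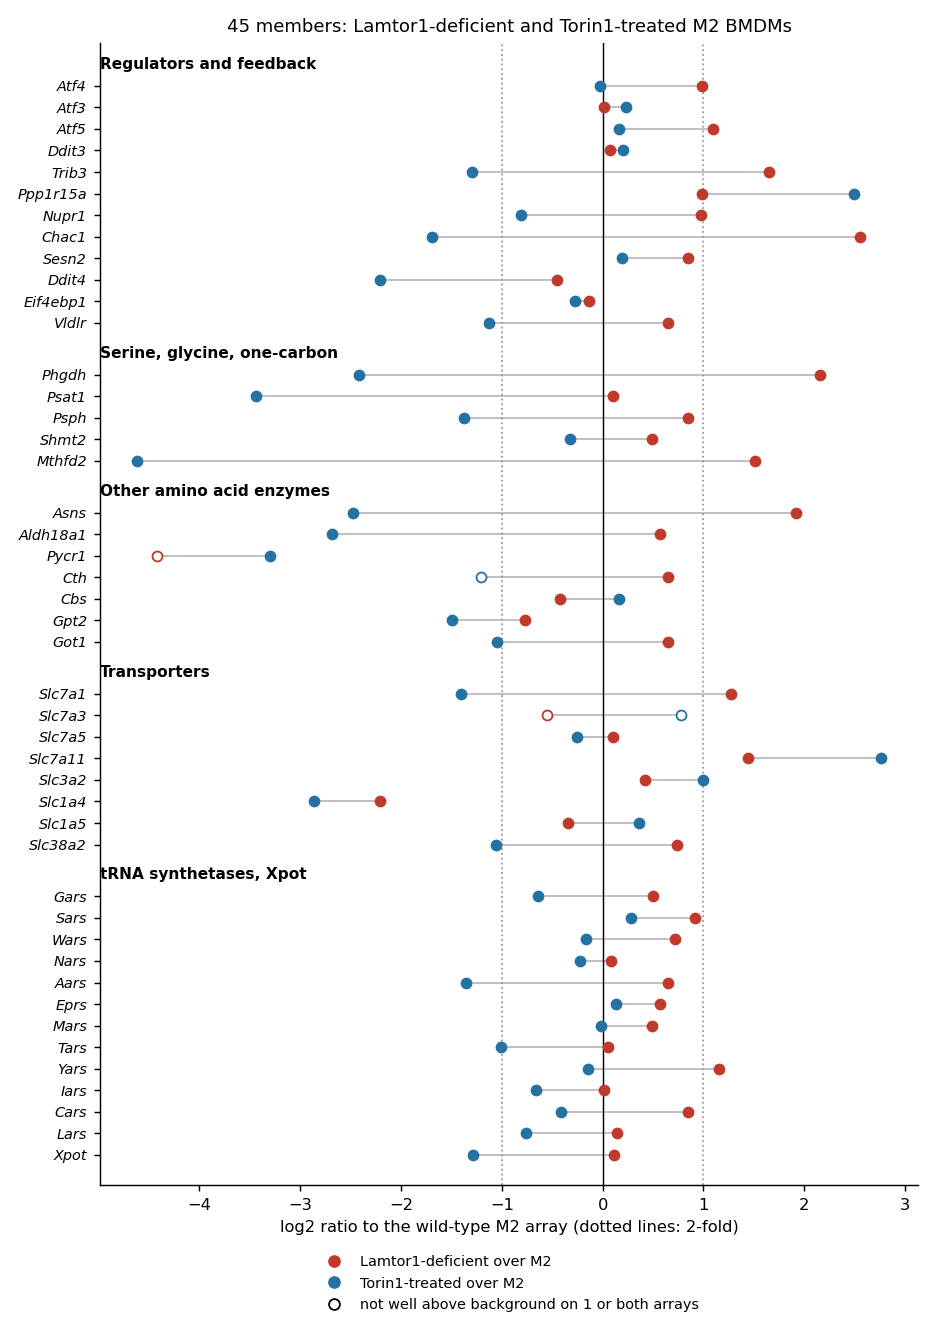
The log2 ratio to the wild-type M2 array (x axis) of each of the 45 members (rows, grouped by role) for the Lamtor1-deficient array (red) and the Torin1 array (blue), with open circles where a probe was not well above background on 1 or both arrays and dotted lines at 2-fold. Of the 45 red points 37 lie above 0, and of the blue points 33 lie below 0.

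A set of 6 members crossed 2-fold in opposite directions, above M2 without Lamtor1 and below it with Torin1: Asns, Phgdh, Mthfd2, Chac1, Trib3 and Slc7a1. They include a synthetic enzyme, the entry step of serine synthesis, a mitochondrial folate enzyme, a glutathione-degrading enzyme, a feedback regulator and a transporter. All 6 were well above background on all 4 arrays. The same pattern was seen in 146 of all 23660 genes (0.617%), and in 79 (0.57%) of the 13849 genes well above background on these 3 arrays, though the members were chosen with these results known.

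Asns, asparagine synthetase, makes asparagine from aspartate and glutamine and is the textbook target of ATF4 (probe at chr6:7625171-7625228, mm9). Its normalized signal was 4.05 on the M2 array, 15.3 on the Lamtor1-deficient array, 0.729 on the Torin1 array and 3.41 on the M1 array. It was 3.79-fold higher after Lamtor1 loss (log2 ratio 1.92) and 5.55-fold lower after Torin1 (-2.47), while the M1 and M2 arrays lay close together.

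Phgdh, phosphoglycerate dehydrogenase, commits 3-phosphoglycerate to serine synthesis (probe at chr3:98117215-98117274, mm9). Its normalized signal was 1.21 on the M2 array, 5.397 on the Lamtor1-deficient array, 0.226 on the Torin1 array and 0.454 on the M1 array. This was 4.45-fold higher after Lamtor1 loss and 5.36-fold lower after Torin1. A second Phgdh probe gave log2 ratios of 2.06 and -2.47, near the 2.15 and -2.42 of the first.

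Mthfd2, the mitochondrial methylenetetrahydrofolate dehydrogenase, had the lowest Torin1 log2 ratio of the 45 members in this scaling, though not under normexp correction, where Psat1 was lower (probe at chr6:83256518-83256577, mm9). Its normalized signal was 1.43 on the M2 array, 4.06 on the Lamtor1-deficient array, 0.0579 on the Torin1 array and 2.07 on the M1 array. It was 2.85-fold higher after Lamtor1 loss and 24.6-fold lower after Torin1. Its raw Torin1 signal was 27.2, near the lowest signal well above background there (15.7), and normexp correction gave a log2 ratio of -2.86 in place of -4.62. The Lamtor1-deficient and Torin1 arrays were thus 70.1-fold apart, and of the 4 arrays the Torin1 array alone stood low.

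Chac1, a glutathione-specific gamma-glutamylcyclotransferase, had the highest log2 ratio after Lamtor1 loss of the 45 members (probe at chr2:119179990-119180049, mm9). Its normalized signal was 0.277 on the M2 array, 1.63 on the Lamtor1-deficient array, 0.0855 on the Torin1 array and 0.236 on the M1 array. This was 5.88-fold higher after Lamtor1 loss and 3.24-fold lower after Torin1. The Torin1 call was lost under normexp background correction, which left a log2 ratio of -0.88.

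Trib3, a pseudokinase that binds ATF4 and damps its activity, had a normalized signal of 1.76 on the M2 array, 5.53 on the Lamtor1-deficient array, 0.717 on the Torin1 array and 52.2 on the M1 array. It was 3.14-fold higher after Lamtor1 loss and 2.46-fold lower after Torin1, and the M1 array stood far above all the IL-4 arrays. Slc7a1 (CAT-1), the carrier of arginine and other cationic amino acids, had a normalized signal of 3.92 on the M2 array, 9.47 on the Lamtor1-deficient array, 1.48 on the Torin1 array and 1.08 on the M1 array. It was 2.41-fold higher after Lamtor1 loss and 2.64-fold lower after Torin1.

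**Figure D2:**
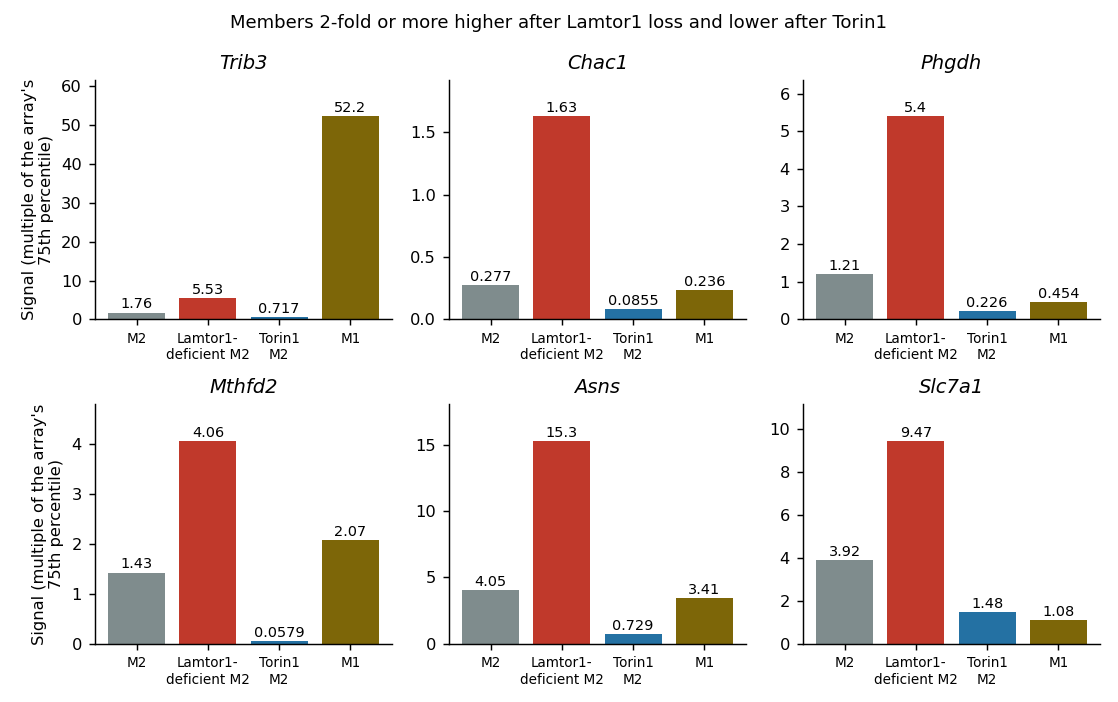
Normalized signal (y axis, multiples of the array's 75th percentile, linear from 0) of the 6 members that were 2-fold or more higher on the Lamtor1-deficient array and 2-fold or more lower on the Torin1 array, 1 bar for each of the 4 arrays. In every panel the Lamtor1-deficient bar is above and the Torin1 bar below the M2 bar, and for Trib3 the M1 bar, at 52.2, is above all others.

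Among the 12 regulators, 3 were 2-fold or more higher after Lamtor1 loss (Atf5, Trib3, Chac1; background 8.88%) and none lower, with a median log2 ratio of 0.91. With median centring 6 were higher, and under quantile normalization 2, where Atf5 was at 0.96. After Torin1, 1 was higher (Ppp1r15a) and 4 were lower (Trib3, Chac1, Ddit4, Vldlr; background 11.7%), with a median of -0.15, and normexp correction left 2 of the lower calls. The normalized signal of Atf4 itself was 114 on the M2 array, 225 on the Lamtor1-deficient array, 111 on the Torin1 array and 564 on the M1 array. Its log2 ratio of 0.99 after Lamtor1 loss lay just inside the 2-fold limit, and a second probe gave 0.90. After Torin1 the Atf4 log2 ratio was -0.03, with -0.35 on the second probe, so the mRNA of the factor was near its M2 level while 20 of the 45 members were 2-fold or more lower. These arrays measure mRNA and say nothing of ATF4 protein.

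Atf5, a related bZIP factor also controlled at translation, had a normalized signal of 59.998 on the M2 array, 128 on the Lamtor1-deficient array, 67.3 on the Torin1 array and 52.3 on the M1 array. Ppp1r15a (GADD34) recruits the phosphatase that reverses eIF2α phosphorylation, and its normalized signal was 8.13 on the M2 array, 16.2 on the Lamtor1-deficient array, 45.7 on the Torin1 array and 193 on the M1 array. Ppp1r15a was 5.62-fold higher after Torin1 and 1.99-fold higher after Lamtor1 loss, unlike most members in that the Torin1 array was the higher of the pair. Ddit4 (REDD1), an inhibitor of mTORC1, was 4.63-fold lower after Torin1, at 2.87 on the M2 array, 2.10 on the Lamtor1-deficient array, 0.620 on the Torin1 array and 40.7 on the M1 array.

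The remaining regulators stayed within 2-fold after both perturbations, apart from Vldlr. Ddit3 (CHOP), the pro-apoptotic partner of ATF4, gave log2 ratios of 0.07 (Lamtor1-deficient) and 0.20 (Torin1), and Atf3, a repressor of the same family, gave 0.01 and 0.23. Sesn2, the leucine sensor that restrains mTORC1, gave 0.84 and 0.19, and Nupr1, a stress-induced chromatin protein, gave 0.97 and -0.81. Eif4ebp1, the translation repressor 4E-BP1, gave -0.13 and -0.27. Vldlr, the very low density lipoprotein receptor, gave 0.65 and -1.12, and its second probe lacked signal well above background on these arrays. Its Torin1 value was -0.27 under normexp correction and -0.42 with both probes averaged.

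All 5 genes of serine, glycine and one-carbon metabolism were highest on the Lamtor1-deficient array. After Lamtor1 loss 2 of 5 were 2-fold or more higher (background 8.88%) and none lower (median log2 ratio 0.84), and after Torin1 none was higher and 4 of 5 were lower (background 11.7%, median -2.42). Besides Phgdh and Mthfd2, the group holds the next steps of serine synthesis and the enzyme that makes glycine in mitochondria. Psat1, phosphoserine aminotransferase, had a normalized signal of 6.67 on the M2 array, 7.17 on the Lamtor1-deficient array, 0.616 on the Torin1 array and 1.88 on the M1 array. Its second probe gave a log2 ratio of -0.06 after Lamtor1 loss, so its direction there was not the same on both probes, whereas both probes lay far below M2 after Torin1 (log2 ratios -3.44 and -2.61). Psph, phosphoserine phosphatase, had a normalized signal of 2.05 on the M2 array, 3.69 on the Lamtor1-deficient array, 0.794 on the Torin1 array and 2.03 on the M1 array. Shmt2, the mitochondrial serine hydroxymethyltransferase, was the member of the group within 2-fold after both perturbations, with log2 ratios of 0.49 and -0.32. The fibroblast marker sum given above was also lowest on the Torin1 and M1 arrays, and its part in these values was not tested.

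Of the 7 other enzymes of amino acid metabolism, 6 were 2-fold or more lower after Torin1 (all except Cbs; background 11.7%), with a median log2 ratio of -1.49, and after Lamtor1 loss 1 was higher (Asns; background 8.88%) and 1 lower (Pycr1; background 8.74%). The Torin1 count was 5 of 7 under the other percentile scaling, without Got1, and under normexp correction, without Cth. Aldh18a1, which makes the proline precursor pyrroline-5-carboxylate, was at 0.358 on the M2 array, 0.531 on the Lamtor1-deficient array and 0.0556 on the Torin1 array, 6.43-fold lower after Torin1, and was not well above background on the M1 array. Its raw Torin1 signal was 26.2, and normexp correction gave a log2 ratio of -1.27 in place of -2.68. Gpt2, the mitochondrial alanine aminotransferase, was highest on the M2 array at 2.35, with 1.38 on the Lamtor1-deficient array, 0.836 on the Torin1 array and 0.190 on the M1 array. Got1, the cytosolic aspartate aminotransferase, was at 35.9 on the M2 array, 56.2 on the Lamtor1-deficient array, 17.3 on the Torin1 array and 38.95 on the M1 array. Gpt2 was below M2 after both perturbations, while Aldh18a1 and Got1 were above it after Lamtor1 loss and below it after Torin1.

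The enzymes of the transsulfuration pathway gave little signal. Cth, cystathionine gamma-lyase, was at 0.0729 on the M2 array and 0.114 on the Lamtor1-deficient array. It was not well above background on the Torin1 array, at least 2.18-fold lower there in this scaling. Its Torin1 log2 ratio of -1.20 became -0.10 under normexp correction. Cbs, cystathionine beta-synthase, gave log2 ratios of -0.42 and 0.16.

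Pycr1, which completes proline synthesis, was the 1 enzyme 2-fold or more lower after both perturbations, and its probes differed. The brighter probe was at 0.475 on the M2 array and at 0.0482 on the Torin1 array. It was not well above background on the Lamtor1-deficient array, at least 12.7-fold lower there in this scaling. Over the other scalings and normexp correction, its log2 ratio on the Lamtor1-deficient array ranged from -4.49 to -2.075. Its Torin1 log2 ratio of -3.30 became -1.75 under normexp correction. The other probe was dim, with a raw signal of 24.4 on the M2 array, near the lowest signal well above background there (21.6). Its log2 ratio was -0.03 for the Lamtor1-deficient array, and it was not well above background on the Torin1 array, at least 1.23-fold lower. The probes lie at chr11:120497302-120497361 and chr11:120501179-120501238 (mm9), and the low Pycr1 value was seen on the brighter probe.

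The 8 transporters did not move together. After Lamtor1 loss 2 were 2-fold or more higher (Slc7a1, Slc7a11) and 1 lower (Slc1a4), where 8.88% and 8.74% of all genes were. After Torin1 2 were higher (Slc7a11, Slc3a2) and 3 lower (Slc7a1, Slc1a4, Slc38a2), where 14.3% and 11.7% of all genes were, and Slc38a2 fell short of 2-fold under the other percentile scaling (-0.98). Slc7a11 (xCT), the cystine-glutamate exchanger, was the one member called higher after both, at 0.244 on the M2 array, 0.665 on the Lamtor1-deficient array and 1.66 on the Torin1 array, with the M1 array not well above background. It was 2.73-fold higher after Lamtor1 loss and 6.80-fold higher after Torin1, and its promoter window held the pair of elements shown above. Slc3a2, the heavy chain that partners both xCT and LAT1, was at 69.7 on the M2 array, 93.1 on the Lamtor1-deficient array, 139 on the Torin1 array and 325 on the M1 array, so it was 2.00-fold higher after Torin1, at the limit of a call, which was lost under median, quantile and normexp processing.

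Slc1a4 (ASCT1), a carrier of alanine, serine and cysteine, was at 102 on the M2 array, 21.97 on the Lamtor1-deficient array, 13.9 on the Torin1 array and 159 on the M1 array. Both perturbations were thus well below M2 and M1, by 4.62-fold and 7.30-fold against M2. Slc38a2 (SNAT2), a neutral amino acid carrier, was at 12.7 on the M2 array, 21.2 on the Lamtor1-deficient array, 6.10 on the Torin1 array and 7.29 on the M1 array. Slc1a5 (ASCT2), a glutamine carrier, stayed within 2-fold after both perturbations, with log2 ratios of -0.34 and 0.36.

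Slc7a5 (LAT1), the large neutral amino acid carrier, had probes that disagreed. The brighter probe gave 0.11 for the Lamtor1-deficient array and -0.25 for the Torin1 array as log2 ratios, and the other gave 1.34 and -1.18. Both probes were well above background on all 4 arrays, and the second would place Slc7a5 among the genes past 2-fold in opposite directions. Slc7a3 was well above background on the Torin1 array alone. Over the 12 members with 2 probes, the calls of both probes were the same for 10 after Lamtor1 loss and for 7 after Torin1.

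Transfer RNA synthetases attach amino acids to their tRNAs, and 12 cytosolic ones stood among the members. Their signals after Lamtor1 loss were all at or above M2, with a median log2 ratio of 0.53, from 0.01 for Iars to 1.15 for Yars. The values near 0 turned sign under other scalings for Iars and Tars. Only Yars was past 2-fold (8.33%, background 8.88%), at 0.0732 on the M2 array, 0.163 on the Lamtor1-deficient array, 0.0663 on the Torin1 array and 0.0883 on the M1 array, and normexp correction left none past 2-fold. Gars, Sars, Wars, Aars, Eprs, Mars and Cars lay between 0.49 and 0.91, and Iars, Tars, Nars and Lars lay between 0.01 and 0.14.

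After Torin1, 10 of the 12 synthetases were below 0, with a median of -0.32, although Eprs, Mars and Yars turned sign under other scalings. Of the 12, 2 (16.7%, background 11.7%) were 2-fold or more lower, and Tars, at the limit, was not under quantile normalization, the other percentile scaling or normexp correction, which left 1 of 12. The Aars call was not kept with its probes averaged (log2 ratio -0.73). Aars, the alanyl-tRNA synthetase, was at 11.7 on the M2 array, 18.5 on the Lamtor1-deficient array, 4.585 on the Torin1 array and 42.0 on the M1 array. Tars, the threonyl-tRNA synthetase, was at 13.6 on the M2 array, 14.1 on the Lamtor1-deficient array, 6.77 on the Torin1 array and 3.86 on the M1 array. Xpot, which carries tRNA out of the nucleus, was at 6.40 on the M2 array, 6.91 on the Lamtor1-deficient array, 2.63 on the Torin1 array and 3.00 on the M1 array. Its second probe gave a Torin1 log2 ratio of -0.93, just short of 2-fold.

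The members were set beside the synthetases outside the list. For the 8 other cytosolic synthetases, which charge aspartate, phenylalanine, histidine, lysine, glutamine, arginine and valine tRNAs, the median log2 ratio after Lamtor1 loss was 0.06, and for 17 mitochondrial synthetases it was 0.05, against 0.53 for the 12 members and 0.04 for all genes. None of the 8 and 1 of the 17 was 2-fold or more higher (background 8.88%), the latter being Nars2, which had no signal well above background. After Torin1 the medians were -0.26 for the 8, -0.29 for the 17 and -0.32 for the 12 members. None of the 8 or the 17 was past 2-fold, where 14.3% of all genes were higher and 11.7% lower. With median centring 1 of the 8 and 2 of the 17 were lower, where 15.7% of all genes were. No promoter window of the other cytosolic synthetases (8 windows, counting the synthetase complex genes Aimp1, Aimp2 and Eef1e1) or of the mitochondrial ones (14 windows) held the element.

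**Figure D3:**
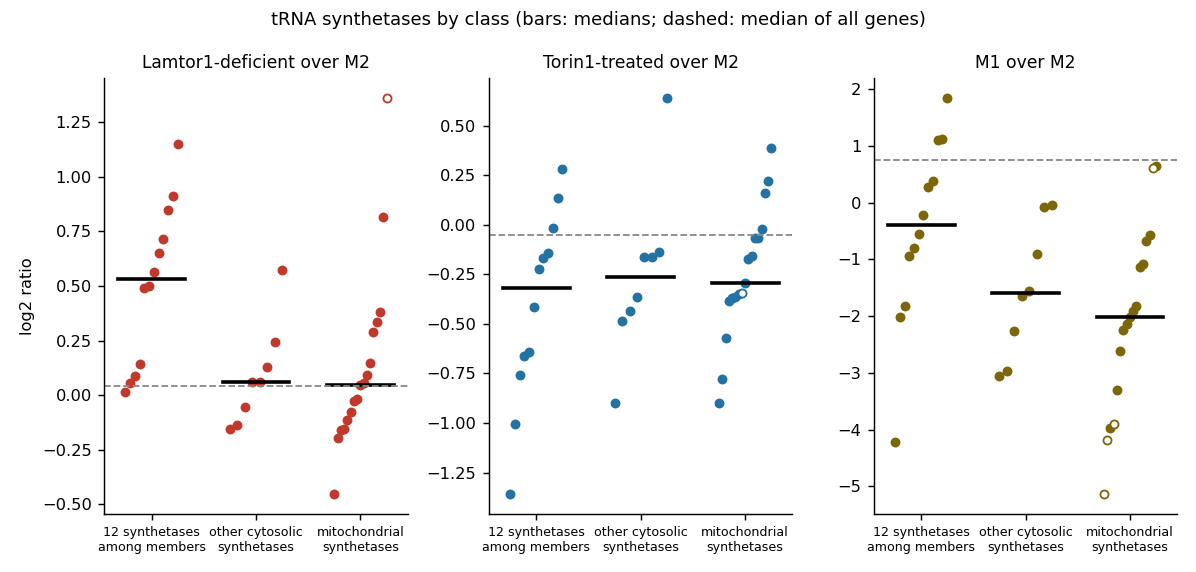
The log2 ratio to the wild-type M2 array (y axis, a scale of its own in each panel) of the 12 synthetases among the members, 8 other cytosolic and 17 mitochondrial synthetases, for the 3 comparisons; each point is a gene, open where not well above background on both arrays, bars are medians and the dashed line is the median of all genes. After Lamtor1 loss the medians are 0.53, 0.06 and 0.05, and after Torin1 they are -0.32, -0.26 and -0.29.

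Members were also compared by the element in their promoter. After Lamtor1 loss the 15 members with a match had a median log2 ratio of 0.65 and the 21 without had 0.57. After Torin1 the medians were -1.05 with a match and -0.32 without, and 13 of 15 and 13 of 21 were below 0. Mthfd2, with the lowest Torin1 value in this scaling, had no match, and Slc7a11, with a pair of matches, was the highest. Of the 9 members 2-fold or more higher after Lamtor1 loss, Trib3, Chac1, Asns, Slc7a11 and Yars held the letters, and Atf5, Phgdh, Mthfd2 and Slc7a1 had a window without them. A window without these letters says nothing about elements elsewhere in the gene.

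**Figure D4:**
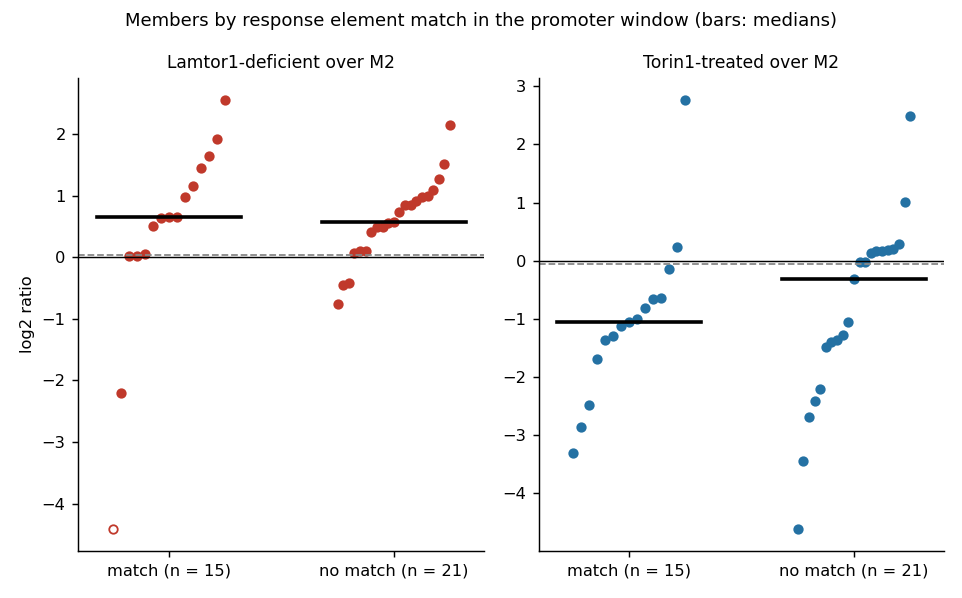
The log2 ratio to the wild-type M2 array (y axis) of the 36 members with a promoter window, split by whether the window held the response element (15 members) or did not (21 members), for the Lamtor1-deficient and the Torin1 array; points are genes, open where not well above background on both arrays, bars are medians and the dashed line is the median of all genes. The points of both classes overlap for the most part, with medians of 0.65 and 0.57 after Lamtor1 loss and -1.05 and -0.32 after Torin1. After Lamtor1 loss Pycr1 (-4.42) and Slc1a4 (-2.21), both with a match, lie below Gpt2 (-0.77), the lowest point without one.

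Between the wild-type M1 and M2 arrays the members split by role. Of the 45, 16 were 2-fold or more higher on the M1 array (background 30.7%) and 12 were lower (background 19.2%), with a median log2 ratio of 0.12 against 0.75 for all genes. Over the 41 members well above background on both arrays, 16 were higher (background 25.2%) and 10 lower (background 25.3%). Higher calls made up 57.1% of the members' calls, and 36.4% when arrays were centred on their medians, which also turned the members' median to -0.70. Among all genes the same change took the share from 61.5% to 33.0% for M1 and from 55.0% to 39.0% for Torin1.

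Of the 12 regulators, 10 were 2-fold or more higher on the M1 array (background 30.7%) and none lower, with a median log2 ratio of 2.61, and with median centring 8 were higher and 2 lower. Nupr1 had the largest ratio, at 4.24 on the M2 array and 426 on the M1 array, 101-fold. Trib3 was 29.7-fold higher, Ppp1r15a 23.8-fold, Ddit4 14.2-fold, Ddit3 13.4-fold and Atf4 4.95-fold. Ddit3 was at 6.27 on the M2 array, 6.61 on the Lamtor1-deficient array, 7.22 on the Torin1 array and 83.8 on the M1 array, so the M1 array alone stood apart. Atf5 and Chac1 were the regulators within 2-fold, with log2 ratios of -0.20 and -0.23, which became -1.02 and -1.05 with median centring.

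The biosynthetic genes did not follow the regulators on the M1 array. None of the 5 serine, glycine and one-carbon genes was 2-fold or more higher and 3 were lower (background 19.2%, median -1.42), with Shmt2 at 3.38 on the M2 array and 0.352 on the M1 array, 9.62-fold lower. Asns was within 2-fold at -0.25 (-1.07 with median centring), Gpt2 was 12.4-fold lower, and Aldh18a1 was at least 5.46-fold lower (log2 ratio -0.92 under normexp correction), while Cbs was 3.86-fold higher. Among the transporters Slc3a2 was 4.67-fold higher, and Slc7a5 was 4.14-fold higher on 1 probe with a log2 ratio of -0.09 on the other. Slc1a5 was at 8.89 on the M2 array and 0.130 on the M1 array, 68.6-fold lower, with a log2 ratio of -3.23 on its second probe. Slc7a11 was at least 3.72-fold lower, and normexp correction gave a log2 ratio of -0.74.

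The synthetases spread in both directions on the M1 array, with a median of -0.39 over the 12, against -1.60 for the 8 other cytosolic and -2.02 for the 17 mitochondrial ones. Aars, Cars and Sars were 3.57-fold, 2.18-fold and 2.16-fold higher, and Iars, Lars and Tars were 18.7-fold, 4.05-fold and 3.52-fold lower. Wars, the tryptophanyl-tRNA synthetase known as an interferon-inducible enzyme, gave a log2 ratio of 0.38. Xpot was 2.13-fold lower. In each direction 3 of the 12 synthetases were past 2-fold (25%), where 30.7% of all genes were higher and 19.2% lower. With arrays centred on their medians 1 was higher and 7 were lower, where 15.6% and 31.7% of all genes were. Under quantile normalization 1 was higher and 3 were lower, where 18.8% and 23.9% of all genes were. Cars and Sars were then no longer past 2-fold. The raw 75th percentile of the M1 array was 287, against 470 to 595 for the other arrays.

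**Figure D5:**
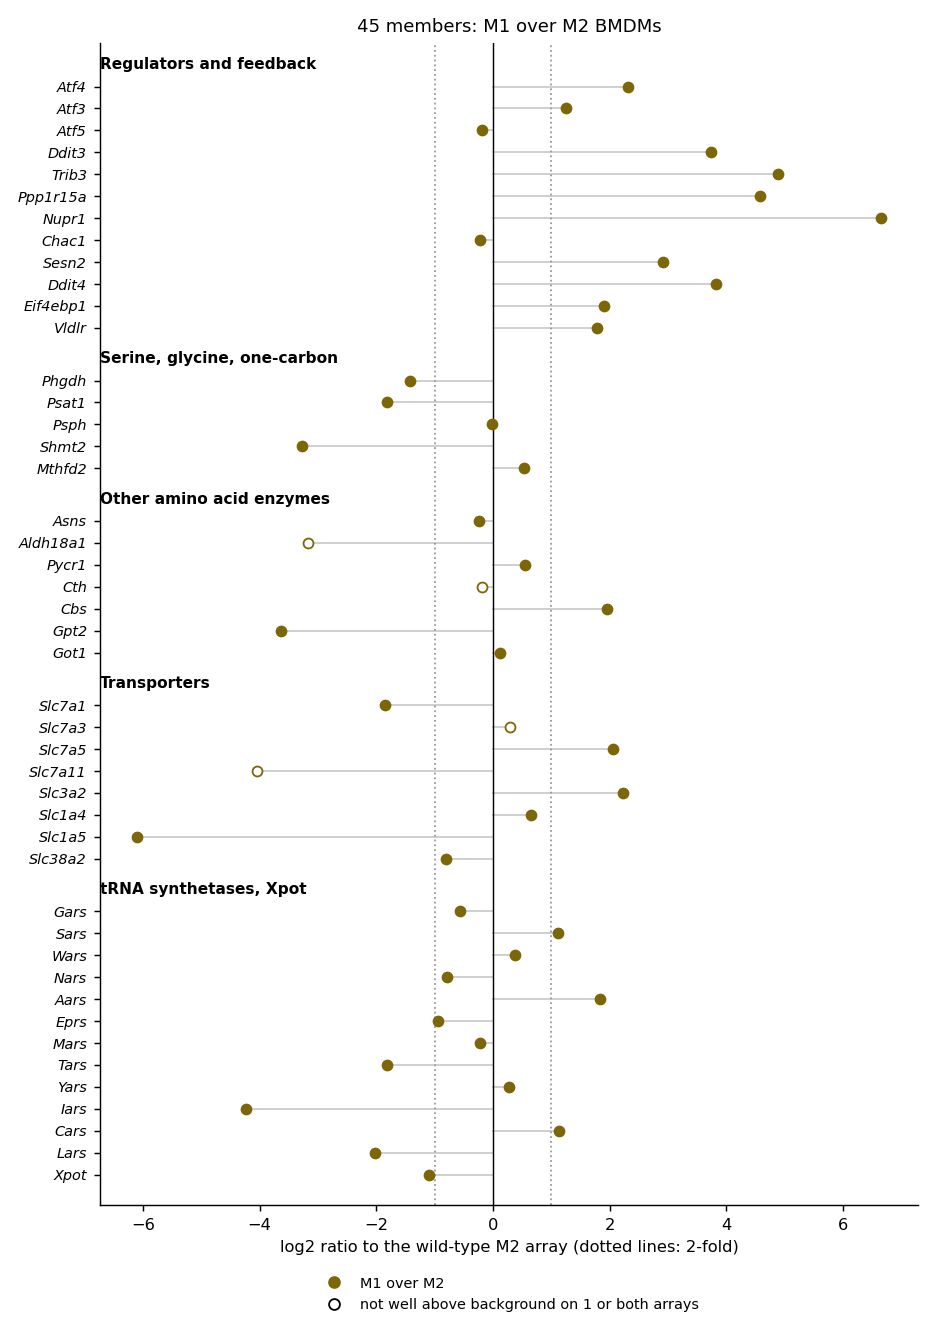
The log2 ratio of the M1 over the M2 array (x axis) of each of the 45 members (rows, grouped by role), with open circles where a probe was not well above background on 1 or both arrays and dotted lines at 2-fold. Of the 12 regulators 10 lie beyond 2-fold higher, with Nupr1 farthest at 6.65, and Slc1a5 is lowest at -6.10.

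The upstream and parallel genes of the pathway were taken from further lists. None of the 11 eIF2α kinases, eIF2 and eIF2B genes and Ppp1r15b was past 2-fold after Lamtor1 loss or Torin1, but 2 of 11 were lower after Torin1 with median centring, where 15.7% of all genes were. Eif2ak4 (GCN2) gave log2 ratios of 0.60 and 0.48, and Eif2ak3 (PERK), the kinase of the endoplasmic reticulum stress arm, gave 0.23 and -0.93. Of 13 other genes known to respond to ATF4, 4 were 2-fold or more higher after Lamtor1 loss (Gdf15, Ndrg1, Stc2, Gadd45a; background 8.88%) and none lower, though 1 was lower under quantile normalization and the other percentile scaling. After Torin1 3 were higher (Gdf15, Ndrg1, Bbc3; background 14.3%) and 3 lower (Slc6a9, Stc2, Herpud1; background 11.7%). Stc2 had no signal well above background on the Torin1 array. Gdf15, a secreted stress cytokine, was at 3.84 on the M2 array, 30.5 on the Lamtor1-deficient array, 30.4 on the Torin1 array and 482 on the M1 array. Gdf15 and Ndrg1 were thus higher after both perturbations, as Slc7a11 was. Slc6a9, a glycine transporter, was at 0.819 on the M2 array, 0.891 on the Lamtor1-deficient array and 0.132 on the Torin1 array. Of 9 further one-carbon genes, Mthfd1l, the mitochondrial formate-producing enzyme, was the 1 past 2-fold lower after Torin1, with a log2 ratio of -2.38, Amt was past 2-fold higher but near background on both arrays, and Shmt1, Mthfd1 and Tyms stayed within 2-fold after both perturbations.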

How the data were processed

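RNA of 4 BMDM samples was labelled with Cy3 and hybridized to Agilent 8x60K one-colour mouse arrays that share 1 slide, 1 array per condition. The deposited intensity values are Feature Extraction processed signals, which the authors' scanner software background-corrected. The software version is 10.5.1.1 per the labels and 10.7.3.1 per the file headers. The values of the series table differed from these signals by at most 0.497%. They were scaled in the same way as an alternative, so that alternative uses nearly the same values. Probe positions are mm9 per the file headers. From the processed signals, control and outlier spots were left out, values below 1.0 were set to 1.0, spots of a probe were averaged, each array was divided by its 75th percentile over 55681 probes, and log2 was taken. Of several probes for a gene, the one with the highest mean over the 4 arrays was used, which left 23660 names among 31397 named probes. Samples were grouped by their titles. Of the 45 members, 40 were well above background on all 4 arrays, and 41 to 44 per array. No spot was saturated. A fold against an array without signal well above background is a lower bound in this scaling only. It sets the brighter array against the dim probe's own value or the lowest signal well above background there, whichever is higher.

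With 1 array per condition no test was run and no p-value is given. The number of arrays limits the precision. All members are reported, and other genes come from role lists. The members and lists were chosen with earlier results of these data known. Python 3.11.15, pandas 2.3.3, NumPy 2.4.6 and limma 3.58.1 in R 4.3.3 (normexp with offset 50) were used, and the scaling, probe choice and 2-fold call were checked on simulated arrays with planted changes. Alternatives were median, quantile and other percentile scaling, normexp, background filters, outlier spots, probe choice and the series table. Promoter windows are from RefSeq.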

Additional observations from a re-analysis of the deposited data

Results flagged for a closer look

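In all, 6 members were 2-fold or more above the M2 array after Lamtor1 loss and 2-fold or more below it after Torin1, so that the single arrays of the 2 perturbations moved in opposite directions from the same reference. Of all genes, 0.617% did so. The log2 ratios after Lamtor1 loss and after Torin1 were 1.92 and -2.47 for Asns, 2.56 and -1.69 for Chac1, and 1.51 and -4.62 for Mthfd2. They were 2.15 and -2.42 for Phgdh, 1.27 and -1.40 for Slc7a1, and 1.65 and -1.30 for Trib3. With 1 array on each side the difference between the perturbations was not tested. Under median, quantile and other percentile scaling and normexp correction all 12 values kept their sign, and 11 kept their call, the exception being Chac1 after Torin1.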

How the results depend on the processing

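No paired analysis was possible because each group holds 1 sample, and no replicate could be left out for the same reason. The median log2 ratio of the 45 members for M1 over M2, 0.12, turned to -0.70 with arrays centred on their medians, to -0.13 under quantile normalization and to -0.024 with all probes of a gene averaged, and was 0.24 under normexp correction and 0.27 over probes well above background on both arrays. The count of members 2-fold or more lower on the M1 array, 12, was 21 with median centring. The Torin1 median, -0.66, was -0.91 with median centring and -0.50 under normexp. The count of members 2-fold or more lower after Lamtor1 loss, 2, was 1 over probes well above background on both arrays, which leaves out Pycr1. Over all 45 members, the other medians moved by less than the spot SD and the other counts by no more than 1.5-fold, the count higher after Torin1 going from 3 to 2 under median, quantile and normexp processing and with outlier spots kept. Over these scalings and normexp, the 11, 23 and 28 members called for Lamtor1-deficient, Torin1 and M1 over M2 all kept their direction, and 9, 16 and 21 kept their call. A total of 4, 9 and 10 members without a call changed sign. Atf5 and Yars lost it after Lamtor1 loss, where Atf4, Nupr1 and Ppp1r15a gained one. Chac1, Cth, Got1, Slc38a2, Slc3a2, Tars and Vldlr lost it after Torin1, where Lars and Nupr1 gained one. Aldh18a1, Atf3, Cars, Phgdh, Sars, Slc7a11 and Vldlr lost it for M1, where Asns, Atf5, Chac1, Cth, Eprs, Gars, Mars, Nars and Slc38a2 gained one. The members' median minus that of all genes ranged from 0.37 to 0.53 after Lamtor1 loss and from -0.71 to -0.56 after Torin1. Among the regulators, 3 higher after Lamtor1 loss became 6 with median centring, and 4 lower after Torin1 became 2 under normexp. The cause of these shifts was not tested. Signal near background limits Cth, Slc7a3, Pycr1 and, on the M1 array, Aldh18a1 and Slc7a11.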

Other observations

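Of 10 bZIP genes that can pair with ATF4 or compete for its partners, Fos and Cebpd were 2-fold or more lower after both perturbations (background 8.74% after Lamtor1 loss and 11.7% after Torin1) and Cebpb was 2-fold or more higher after Torin1 (background 14.3%). The normalized signal of Fos was 6.78 on the M2 array, 0.697 on the Lamtor1-deficient array, 1.104 on the Torin1 array and 17.1 on the M1 array. Cebpb, which forms dimers with ATF4, was at 52.1 on the M2 array, 68.0 on the Lamtor1-deficient array, 132 on the Torin1 array and 394 on the M1 array. Cebpg, the C/EBP protein that partners ATF4 at response elements, stayed within 2-fold after both, with log2 ratios of 0.02 and 0.26.

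Among 14 amino acid carriers outside the member list, Slc7a8 (LAT2) and the lysosomal Slc36a1 (PAT1) were 2-fold or more lower after both perturbations (14.3% of the list, background 8.74% and 11.7%). After Lamtor1 loss these calls were at the limit, and none was left with median centring or normexp correction. Slc43a1 was 2-fold or more higher after Torin1, with signal well above background on 1 array of that pair. Slc7a8 was at 2.95 on the M2 array, 1.41 on the Lamtor1-deficient array, 0.587 on the Torin1 array and 21.8 on the M1 array. Slc36a4 was 2-fold or more higher after Lamtor1 loss, with a log2 ratio of 1.38, as was Slc43a1 at 1.08 with no signal well above background on that pair of arrays. Slc36a4 gave 0.94 after Torin1. Slc38a9, the lysosomal arginine sensor of the Ragulator pathway, stayed within 2-fold, with log2 ratios of -0.28 and -0.24.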
